A study of Mus musculus with 9 samples.

Results

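Transcript levels of 36 endothelial cell genes were examined in hearts of 12-week-old male mice, in 9 RNA-seq libraries that form 3 groups of 3. The groups were OMA1 knockout mice given isoproterenol (treated knockout), wild-type mice given isoproterenol (treated wild-type) and OMA1 knockout mice left untreated (untreated knockout). The labels give C57BL/6JOlaHsd as the background of every group, and do not say how the knockout allele was made. Isoproterenol, a β-adrenergic agonist that raises the work of the heart, was delivered at 10 mg/kg per day by osmotic minipump for 7 days, and the untreated mice are labelled as controls without mention of a pump, so drug and pump implantation cannot be told apart. No group of wild-type hearts without the drug was analysed, and no interaction between genotype and treatment could be tested. OMA1, a metalloprotease in mitochondria, cleaves the fusion protein OPA1 under stress.

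The 36 genes were taken by name from the deposited table of 13539 genes, and all 36 were listed and passed the minimum for testing (3 or more libraries at 10 or above), as 8543 genes did. Sox17 passed only through the treated knockout libraries and Plvap mainly through the untreated knockout libraries, where each was high, so both had to differ in order to be tested. Values are the deposited normalized expected counts, which are scaled to library size and not to transcript length. Differences are on the log2(value + 1) scale, first-named group over second, with the standard error of a limma fit, and adjusted p-values are over all 8543 genes with a threshold of 0.05.

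Endothelial cells line blood vessels, the endocardium and lymphatics, and capillary endothelium lies beside almost every cardiomyocyte. Their identity is kept by transcription factors of the ETS and SOXF families. Growth and quiescence are set by vascular endothelial growth factor (VEGF) and angiopoietin receptors, by Notch, and by the BMP9/10 receptor complex of ACVRL1 and endoglin. Heart capillaries also carry the machinery that passes fatty acids from blood to muscle. In RNA from whole hearts, more endothelial cells and more RNA per endothelial cell cannot be told apart. Several of the genes are read in other cells as well, such as Fabp4 in adipocytes, Ets1 and S1pr1 in lymphocytes, Cd93 in myeloid cells, and Nrp1 and Eng in stromal cells.

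Libraries held 6.93e+06 to 1.22e+07 reads. Treated knockout replicate 2 stood apart: it held the highest value of all 9 libraries for 31 of the 36 genes, the largest share of mitochondrial genome transcripts (42.5%, against 33.9% to 39.6% in the other libraries) and the highest summed level of 4 erythroid genes (4371, against 1007 to 3891). The knockout was visible in Oma1 itself, at 6.74, 5.73 and 6.25 in treated knockout hearts, 22.01, 19.9 and 17.7 in treated wild-type hearts and 6.52, 9.10 and 6.63 in untreated knockout hearts. Mmrn1, a gene that the C57BL/6JOlaHsd substrain is known to lack, had 5 to 19 reads in each of the 6 knockout libraries and 0 reads in every treated wild-type library. Genotype and any difference in substrain between the knockout and wild-type mice therefore cannot be told apart.

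In treated knockout hearts, 27 of the 36 endothelial genes were higher than in treated wild-type hearts and 0 were lower, and all 36 fitted differences were above 0. Over all genes tested, 27.8% passed, with 12.0% higher and 15.9% lower. The median log2 difference of the 36 was 0.36, against -0.01 over all genes, and single genes ranged from 0.11 for Nrp1 to 0.77 for Sox17. In 31 of the 36 every treated knockout library lay above every treated wild-type library, as 20.0% of all genes did. The largest rises that passed were those of Sox17, Rasip1, Sox18, Egfl7 and Cldn5, and the genes that missed the threshold were Cdh5, Tek, Ptprb, Aplnr, Nrp1, Clec14a, Myct1, Vwf and Plvap. Sox17 was tested only through its treated knockout libraries, so it had to be high there to be among the 27. Without treated knockout replicate 2, 16 of the 36 were higher and 0 lower (median 0.28), against 6.34% of all genes higher. Leaving out treated wild-type replicate 1 left 18 higher (share of all genes in that fit not given here).

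Treatment of knockout hearts was the larger contrast. Against untreated knockout hearts, treated knockout hearts had 34 of the 36 genes higher and 1, Plvap, lower, against 23.9% higher and 27.4% lower of all genes (51.4% in either direction). The median log2 difference was 0.79, against -0.02 over all genes. Cd93, Fabp4, Sox18, Icam2 and Cldn5 rose most, by 1.03 to 1.21 on the log2 scale. Vwf was the only gene of the 36 that did not pass. Of those that passed, Sox17 was tested only through treated knockout libraries and Plvap mainly through untreated ones, where each was high. Without treated knockout replicate 2, 33 were higher and 1 lower (median 0.73), against 19.9% higher and 23.0% lower of all genes.

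**Figure D1:**
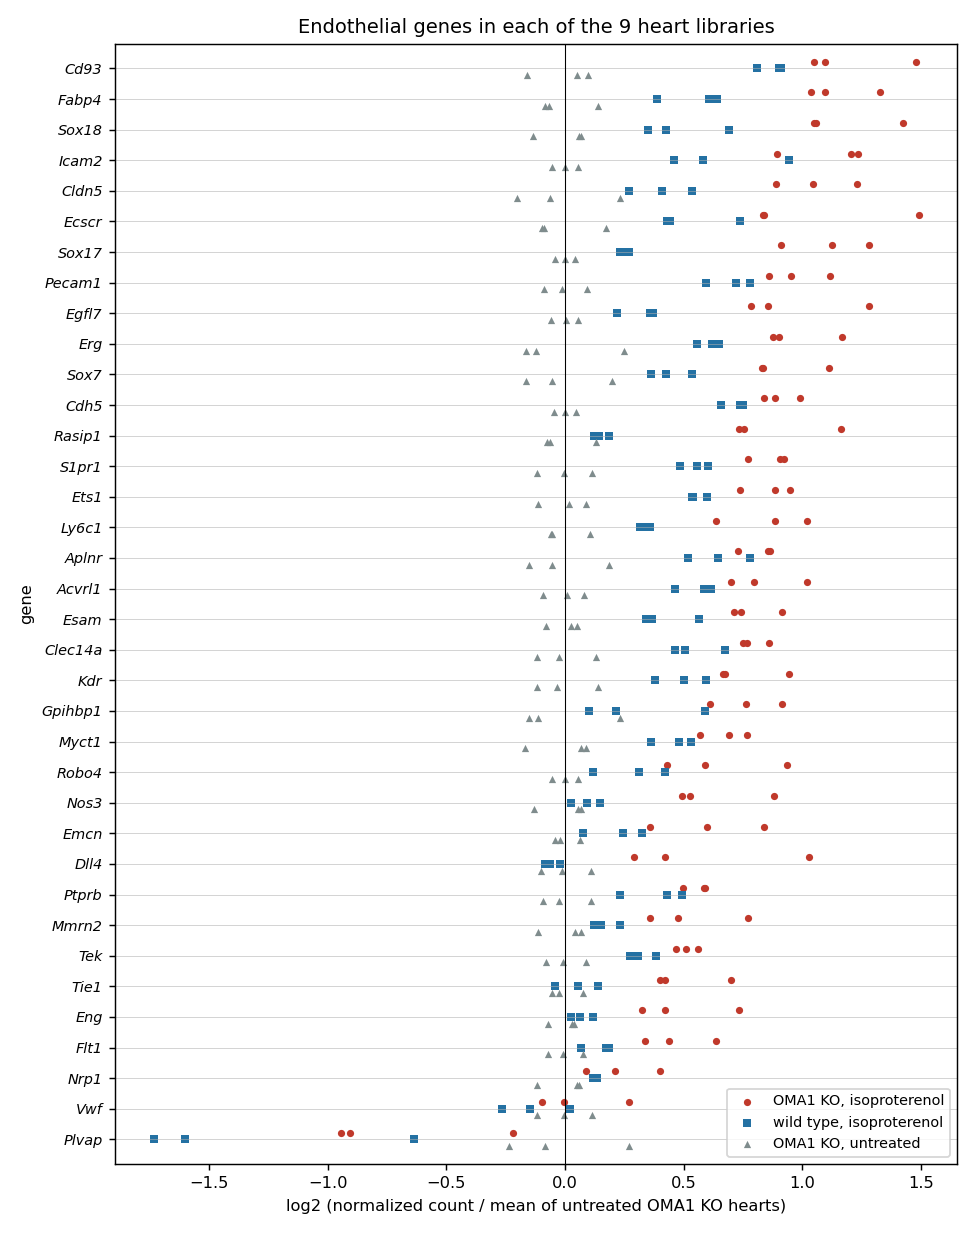
Each row is a gene and each point a library, placed by its log2 ratio to the mean of the 3 untreated knockout hearts; groups are coloured, and the line at 0 marks the untreated mean. Treated knockout libraries lie to the right of treated wild-type libraries without overlap for 31 of the 36 genes, and Plvap and Vwf lie at the bottom.

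Treated wild-type hearts stood between the other groups for most of the genes. Group means fell in the order treated knockout, treated wild-type, untreated knockout for 33 of the 36. The share of all genes with this order was not counted, so how common it is cannot be said. Against untreated knockout hearts, treated wild-type hearts had 22 genes higher and 1, Plvap, lower, against 16.4% higher and 16.9% lower of all genes (33.2% in either direction), with a median log2 difference of 0.39 against 0.01. Genotype and treatment both differ in this contrast and cannot be told apart. The 13 genes that did not pass were Flt1, Nrp1, Tie1, Sox17, Eng, Dll4, Robo4, Gpihbp1, Vwf, Mmrn2, Emcn, Nos3 and Rasip1. Of these, Robo4, Gpihbp1 and Rasip1 passed when corrected for length and GC (0.32, 0.41 and 0.32). The 3 contrasts share libraries, so their results are not independent of one another. Without untreated knockout replicate 1, 18 genes were higher in treated wild-type hearts (share of all genes in that fit not given here).

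The untreated hearts also differed from the treated ones in tissue content. Markers of atrial myocytes (5 of 5 listed) summed to 87.8 to 119 in treated knockout, 53.5 to 844 in treated wild-type and 1129 to 2526 in untreated knockout hearts. The highest treated wild-type value came from Nppa in replicate 3. Bmp10 was at 0 in all treated libraries. Adipocyte markers (4 of 5 listed) were at most 0.725 in sum in any treated library and at least 16.1 in untreated knockout hearts. Endocardial markers (4 of 4) summed in the same order to 38.7 to 53.6, 35.6 to 40.6 and 58.05 to 68.1. The part of atrial, fat and endocardial tissue in the contrasts with untreated hearts was not tested. Between the treated groups, the atrial markers differed by -0.64 to 0.35 with adjusted p-values of at least 0.31. These tests cannot show equal atrial content. Sln, Myl7, Myl4 and Bmp10 passed the minimum for testing only through untreated libraries, and were at most 2.59 in any treated library. Their spread in the fit is shared with the untreated libraries. The standard error of Nppa was 0.69, with 842 in treated wild-type replicate 3. Adipocyte markers were near 0 in both treated groups.

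Junction and adhesion genes hold endothelial cells to each other. Pecam1 (ENSMUSG00000020717, chromosome 11, 106654217 to 106750628, GRCm38), which encodes the adhesion molecule CD31, had normalized counts of 241, 288 and 257 in treated knockout hearts, 200.5, 228 and 219 in treated wild-type hearts and 125, 132 and 142 in untreated knockout hearts. Cdh5, the gene for VE-cadherin of the adherens junction, had 301, 335 and 312 in treated knockout hearts, 266, 283 and 281 in treated wild-type hearts and 169, 163 and 174 in untreated knockout hearts. For both genes the 3 groups did not overlap, with treated knockout hearts highest and untreated knockout hearts lowest. Pecam1 was higher in treated knockout than treated wild-type hearts by 0.28 ± 0.08 (adjusted p = 0.025) and higher than in untreated knockout hearts by 0.97 ± 0.08 (adjusted p = 1.9e-06). Cdh5 rose by 0.90 ± 0.07 (adjusted p = 9.1e-07) between the knockout groups, and was higher in treated wild-type than untreated knockout hearts by 0.71 ± 0.07 (adjusted p = 8.3e-06). Between the treated groups its difference was 0.19 ± 0.07, with a 95% interval of 0.04 to 0.34 and an adjusted p of 0.051. It passed by edgeR (adjusted p = 0.045), by DESeq2 (adjusted p = 0.023) and under each of the 4 other scalings. Cldn5, which encodes claudin-5 of the tight junction, had 41.7, 52.8 and 46.4 in treated knockout hearts, 32.6, 29.9 and 27.1 in treated wild-type hearts and 19.6, 21.5 and 26.4 in untreated knockout hearts. It differed by 0.63 ± 0.12 (adjusted p = 0.0024) between the treated groups and by 1.03 ± 0.12 (adjusted p = 1.3e-05) between the knockout groups. Corrected for length and GC, the Cldn5 difference between the treated groups was 0.34, adjusted p = 0.046, and with a replicate block added the call was lost (adjusted p = 0.060). Esam, an adhesion molecule of the tight junction region, had 82.5, 93.1 and 80.9 in treated knockout hearts, 63.7, 72.98 and 62.7 in treated wild-type hearts and 46.7, 50.3 and 51.1 in untreated knockout hearts, and its 3 groups did not overlap either. Icam2, a ligand of leukocyte integrins, had 29.02, 36.7 and 35.9 in treated knockout hearts, 21.5, 29.98 and 23.4 in treated wild-type hearts and 16.2, 15.00 and 15.6 in untreated knockout hearts. One treated wild-type library of Icam2 reached above the lowest treated knockout library. Esam and Icam2 differed by 0.36 and 0.43 between the treated groups and by 0.78 and 1.06 between the knockout groups, and all 4 differences passed. The Pecam1 call between the treated groups was lost without treated knockout replicate 2 or treated wild-type replicate 1 (adjusted p = 0.088 and 0.095). The Icam2 call between the treated groups was lost without treated knockout replicate 2, treated knockout replicate 3 or treated wild-type replicate 1 (adjusted p = 0.071, 0.055 and 0.073). With length and GC content corrected for, the Icam2 difference between the treated groups was 0.26, adjusted p = 0.11.

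**Figure D2:**
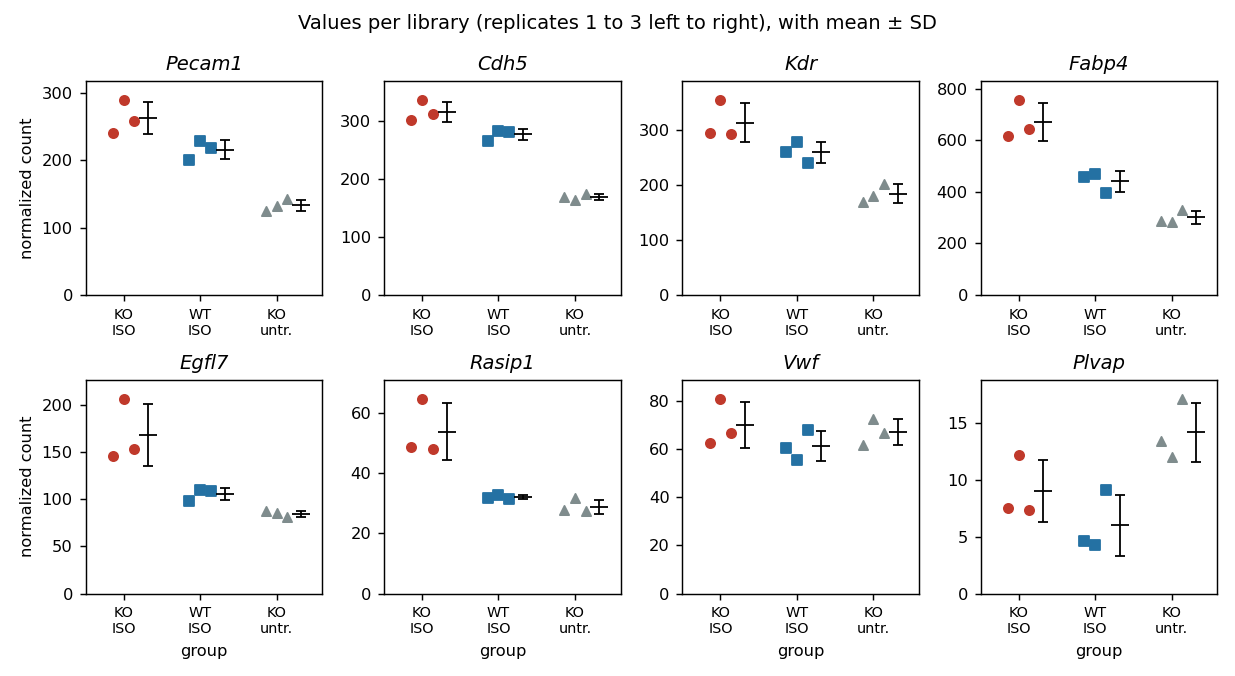
Normalized counts of 8 genes in each library, on axes that start at 0, with points for replicates and a bar for mean ± SD (n = 3); KO ISO, WT ISO and KO untr. stand for treated knockout, treated wild-type and untreated knockout. Rasip1 lies at 48.0 to 64.6 in treated knockout hearts, above both other groups, while the groups of Vwf overlap.

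Receptor tyrosine kinases carry the VEGF and angiopoietin signals. Kdr, the main signalling receptor for VEGF-A, had 295, 354 and 293 in treated knockout hearts, 261, 278 and 239.9 in treated wild-type hearts and 169.7, 180.3 and 203 in untreated knockout hearts. Its treated knockout libraries lay above all others, by 0.27 ± 0.09 (adjusted p = 0.046) against treated wild-type and 0.76 ± 0.09 (adjusted p = 2.6e-05) against untreated knockout hearts. Flt1, a VEGF receptor that also exists as a soluble decoy, had 110.4, 136 and 118 in treated knockout hearts, 99.4, 98.6 and 91.6 in treated wild-type hearts and 86.7, 83.1 and 92.2 in untreated knockout hearts. Flt1 passed between the treated groups at 0.32 ± 0.08 (adjusted p = 0.013) and between the knockout groups at 0.47 ± 0.08 (adjusted p = 0.00044), while treated wild-type and untreated knockout hearts overlapped (0.14, adjusted p = 0.21). Nrp1, a co-receptor for VEGF and semaphorins, had 195, 242 and 213 in treated knockout hearts, 201, 202 and 199.5 in treated wild-type hearts and 169.6, 191 and 190.4 in untreated knockout hearts. The treated groups overlapped, and the difference between them was the smallest of the 36, at 0.11 ± 0.08 with a 95% interval of -0.07 to 0.28 (adjusted p = 0.36), and it rose by 0.23 ± 0.08 (adjusted p = 0.030) between the knockout groups. The Kdr call between the treated groups was lost without treated knockout replicate 1, treated knockout replicate 2, treated wild-type replicate 1, treated wild-type replicate 3, untreated knockout replicate 1 or untreated knockout replicate 2 (adjusted p = 0.051 to 0.17). Kdr also missed the threshold with a looser filter or none, without the trend, and with only the 2 treated groups in the fit (adjusted p = 0.055 to 0.072). The Nrp1 call between the knockout groups was lost without treated knockout replicate 2, treated knockout replicate 3 or untreated knockout replicate 1 (adjusted p = 0.11, 0.056 and 0.14). With cyclic loess scaling the Nrp1 difference between the knockout groups was 0.39.

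Tek, the receptor of angiopoietins also called TIE2, had 83.3, 80.9 and 86.1 in treated knockout hearts, 70.6, 72.3 and 76.2 in treated wild-type hearts and 55.2, 58.05 and 62.04 in untreated knockout hearts. Tie1, its partner without a known soluble ligand of its own, had 131, 162 and 134 in treated knockout hearts, 104, 109.8 and 96.9 in treated wild-type hearts and 96.03, 97.8 and 105 in untreated knockout hearts. Tek separated all 3 groups, while Tie1 separated treated knockout hearts from the rest, and treated wild-type and untreated knockout hearts overlapped. Tie1 differed by 0.45 ± 0.09 (adjusted p = 0.0031) between the treated groups and Tek by 0.19 ± 0.07 (95% interval 0.04 to 0.34, adjusted p = 0.061). Between the knockout groups both rose, Tie1 by 0.50 ± 0.09 and Tek by 0.51 ± 0.07. Ptprb, a phosphatase that dampens TIE2, had 184, 196 and 196 in treated knockout hearts, 176, 153 and 183 in treated wild-type hearts and 122, 128 and 141 in untreated knockout hearts, and rose between the knockout groups (0.56 ± 0.08, adjusted p = 9.8e-05) with 0.17 ± 0.08 between the treated groups (adjusted p = 0.13). Tek passed between the treated groups by edgeR (adjusted p = 0.035), under each of the 4 other scalings and without treated wild-type replicate 3 (adjusted p = 0.046). In the fit corrected for length and GC, Tek and Ptprb also passed between the treated groups (0.27 and 0.33, adjusted p = 0.016 and 0.0083).

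Transcription factors of endothelial identity were higher in treated knockout hearts than in either other group in all 5 cases. The 3 SOXF genes act together in vascular development and arterial specification. Sox17 had 15.1, 13.5 and 11.7 in treated knockout hearts, 7.43, 7.49 and 7.30 in treated wild-type hearts and 6.04, 6.39 and 6.22 in untreated knockout hearts. Sox18 had 57.1, 74.00 and 57.4 in treated knockout hearts, 44.6, 35.2 and 37.00 in treated wild-type hearts and 25.1, 28.9 and 28.7 in untreated knockout hearts, and Sox7 had 37.6, 45.7 and 37.6 in treated knockout hearts, 30.5, 28.4 and 27.1 in treated wild-type hearts and 20.3, 18.8 and 24.2 in untreated knockout hearts. In none of the 3 did a treated wild-type or untreated knockout library reach the lowest treated knockout library. Between the treated groups Sox17 differed by 0.77 ± 0.13 (adjusted p = 0.0016), Sox18 by 0.67 ± 0.11 and Sox7 by 0.47 ± 0.10, and between the knockout groups by 0.995, 1.15 and 0.90. Sox17 reached 10 only in treated knockout libraries, so its p-value is not independent of the filter. With a pseudocount of 10 the Sox17 difference was 0.53 between the knockout groups and 0.43 between the treated groups. The Sox18 difference between the treated groups was 0.39 when corrected for length and GC. Erg, an ETS factor that maintains junction genes, had 37.1, 44.6 and 36.4 in treated knockout hearts, 31.2, 29.2 and 30.5 in treated wild-type hearts and 18.2, 17.7 and 23.6 in untreated knockout hearts. Ets1, an ETS factor also read in lymphocytes, had 115, 133 and 128 in treated knockout hearts, 101, 104 and 100.2 in treated wild-type hearts and 63.9, 69.9 and 73.5 in untreated knockout hearts. Both separated the 3 groups without overlap, by 0.36 and 0.30 between the treated groups and 0.96 and 0.85 between the knockout groups. The Erg call between the treated groups was lost without treated knockout replicate 2 or treated wild-type replicate 2 (adjusted p = 0.11 and 0.077).

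The BMP9/10 receptors and Notch ligand of the list parted into separate patterns. Eng, endoglin, a co-receptor mutated in hereditary haemorrhagic telangiectasia, had 212, 281 and 227 in treated knockout hearts, 172, 184 and 177 in treated wild-type hearts and 161, 173 and 174 in untreated knockout hearts. Dll4, a Notch ligand of tip cells and arteries, had 24.2, 40.4 and 26.5 in treated knockout hearts, 18.98, 18.7 and 19.5 in treated wild-type hearts and 21.4, 18.4 and 19.6 in untreated knockout hearts. For both, treated wild-type and untreated knockout hearts overlapped and all treated knockout libraries lay above them. Eng differed by 0.42 ± 0.09 (adjusted p = 0.0061) and Dll4 by 0.61 ± 0.14 (adjusted p = 0.0081) between the treated groups. Acvrl1, the receptor kinase ALK1, had 33.3, 41.5 and 35.6 in treated knockout hearts, 30.7, 28.2 and 31.3 in treated wild-type hearts and 19.2, 21.6 and 20.6 in untreated knockout hearts, with 3 groups that did not overlap (0.28 between the treated groups, 0.81 between the knockout groups). The Acvrl1 call between the treated groups was lost without treated knockout replicate 2, treated knockout replicate 3, treated wild-type replicate 1 or treated wild-type replicate 2 (adjusted p = 0.059 to 0.16). Acvrl1 also missed the threshold with a looser filter, with none, and with only the 2 treated groups in the fit (adjusted p = 0.059, 0.059 and 0.068). Without treated knockout replicate 2 the Dll4 difference between the treated groups was 0.39. Without treated knockout replicate 2 the Dll4 difference between the knockout groups was 0.34. In the fit corrected for length and GC, and by DESeq2, Acvrl1 no longer passed between the treated groups (adjusted p = 0.13 and 0.053).

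Of the G protein-coupled and guidance receptors, S1pr1, a sphingosine 1-phosphate receptor that steadies the endothelial barrier, had 76.2, 84.7 and 83.6 in treated knockout hearts, 62.4, 67.8 and 65.5 in treated wild-type hearts and 44.5, 41.1 and 48.4 in untreated knockout hearts. Aplnr, the apelin receptor, had 103, 113 and 112 in treated knockout hearts, 88.5, 106 and 96.5 in treated wild-type hearts and 55.7, 59.5 and 70.2 in untreated knockout hearts. Robo4, an endothelial member of the roundabout family, had 50.8, 64.6 and 45.5 in treated knockout hearts, 41.9, 45.2 and 36.6 in treated wild-type hearts and 33.7, 35.05 and 32.5 in untreated knockout hearts. S1pr1 separated all 3 groups (0.32 ± 0.08, adjusted p = 0.011 between the treated groups). Aplnr separated both treated groups from the untreated one (0.81 ± 0.09, adjusted p = 1.6e-05 between the knockout groups and 0.65 ± 0.09 (adjusted p = 0.00021) for treated wild-type hearts), and the treated groups overlapped (0.17 ± 0.09, 95% interval -0.03 to 0.37). Robo4 was higher in treated knockout hearts in both contrasts, by 0.36 ± 0.11 (adjusted p = 0.031) and 0.64 ± 0.11 (adjusted p = 0.00046). The Robo4 call between the treated groups was lost without treated knockout replicate 2, treated wild-type replicate 1 or treated wild-type replicate 3 (adjusted p = 0.13, 0.061 and 0.086). Robo4 also missed the threshold with only the 2 treated groups in the fit (adjusted p = 0.067). Its length- and GC-corrected difference between the treated groups was 0.33, adjusted p = 0.055.

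Fabp4 and Gpihbp1 serve fatty acid passage across heart capillaries, the first as a fatty acid binding protein and the second as the anchor of lipoprotein lipase. Fabp4 (ENSMUSG00000062515, chromosome 3, 10204088 to 10208576) had 617, 754 and 644 in treated knockout hearts, 458, 469 and 394 in treated wild-type hearts and 287, 284 and 331 in untreated knockout hearts. The groups did not overlap, and Fabp4 was higher in treated knockout hearts by 0.61 ± 0.10 (adjusted p = 0.0012) against treated wild-type and 1.15 ± 0.10 (adjusted p = 1.6e-06) against untreated knockout hearts. Adipocytes also express Fabp4, and their markers summed to 0 to 0.725 in treated knockout, 0.115 to 0.288 in treated wild-type and 16.1 to 69.4 in untreated knockout hearts. Gpihbp1 had 52.02, 64.2 and 57.9 in treated knockout hearts, 39.5, 51.3 and 36.6 in treated wild-type hearts and 30.7, 40.1 and 31.5 in untreated knockout hearts. Its lowest treated knockout library lay just above its highest treated wild-type library, with differences of 0.45 ± 0.13 (adjusted p = 0.020) and 0.76 ± 0.13 (adjusted p = 0.00032). The Gpihbp1 call between the treated groups was lost without treated knockout replicate 2, treated wild-type replicate 1 or treated wild-type replicate 3 (adjusted p = 0.084, 0.066 and 0.055). Corrected for length and GC, it was 0.32, adjusted p = 0.076 between the treated groups.

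Among secreted and matrix proteins, Egfl7 (ENSMUSG00000026921, chromosome 2, 26580014 to 26593120), which encodes an endothelial matrix protein and hosts a microRNA, had 146, 206 and 153 in treated knockout hearts, 98.7, 109.5 and 109 in treated wild-type hearts and 87.9, 84.98 and 81.4 in untreated knockout hearts. It differed by 0.65 ± 0.11 (adjusted p = 0.0015) between the treated groups and 0.97 ± 0.11 (adjusted p = 1.3e-05) between the knockout groups, with no overlap among the 3 groups. The span of Egfl7 overlaps that of Agpat2 on the opposite strand, and strand use in counting is not given in the sources used here. Mmrn2, multimerin-2, which binds CD93 and CLEC14A, had 57.4, 70.4 and 52.8 in treated knockout hearts, 45.8, 44.9 and 48.4 in treated wild-type hearts and 38.2, 43.2 and 42.4 in untreated knockout hearts, and differed by 0.36 and 0.53 in these contrasts, both past the threshold. The Mmrn2 call between the treated groups was lost without treated knockout replicate 2 or treated wild-type replicate 2 (adjusted p = 0.060 and 0.054). Vwf, von Willebrand factor, which is rich in veins and endocardium and poor in capillaries, had 62.7, 80.8 and 66.8 in treated knockout hearts, 60.4, 55.7 and 68.05 in treated wild-type hearts and 61.7, 72.6 and 66.7 in untreated knockout hearts. Its groups overlapped in all 3 contrasts, with log2 differences of 0.18 ± 0.10, 0.06 ± 0.10 and -0.13 ± 0.10 and 95% intervals of -0.04 to 0.41, -0.16 to 0.28 and -0.35 to 0.10. A rise of the size of the Pecam1 difference between the knockout groups (0.97) lay outside the interval of Vwf in that contrast.

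Surface glycoproteins held both the largest rise and the one fall of the 36 against untreated knockout hearts. Cd93, a receptor for multimerin-2, had 225, 293 and 218 in treated knockout hearts, 184, 198 and 196 in treated wild-type hearts and 93.98, 109 and 112 in untreated knockout hearts. That amounted to 1.21 ± 0.11 (adjusted p = 2.3e-06) between the knockout groups and 0.87 ± 0.11 (adjusted p = 5.2e-05) in treated wild-type over untreated knockout hearts, with 0.33 ± 0.11 (adjusted p = 0.031) between the treated groups. Clec14a, a related C-type lectin, had 32.1, 31.8 and 34.2 in treated knockout hearts, 26.04, 30.1 and 26.8 in treated wild-type hearts and 20.7, 18.6 and 17.4 in untreated knockout hearts. Emcn, endomucin of capillaries and veins, had 49.8, 69.5 and 58.9 in treated knockout hearts, 40.99, 48.7 and 46.04 in treated wild-type hearts and 40.6, 37.8 and 38.3 in untreated knockout hearts. Ly6c1, a GPI-anchored protein of capillaries, had 109, 142 and 129.7 in treated knockout hearts, 88.3, 90.2 and 87.4 in treated wild-type hearts and 67.4, 75.6 and 67.7 in untreated knockout hearts. Each of these 3 had all treated knockout libraries above all treated wild-type libraries, by 0.24 (adjusted p = 0.058), 0.38 and 0.51, of which the last pair passed. Ly6c1 has a near-identical copy, Ly6c2, so its count is uncertain. Ecscr, a regulator of endothelial migration, had 19.5, 30.7 and 19.5 in treated knockout hearts, 14.9, 18.2 and 14.7 in treated wild-type hearts and 10.3, 10.2 and 12.3 in untreated knockout hearts, and Myct1, a membrane protein of endothelial cells, had 33.7, 38.6 and 36.6 in treated knockout hearts, 31.6, 32.7 and 29.1 in treated wild-type hearts and 20.2, 24.1 and 23.8 in untreated knockout hearts. Between the knockout groups all 5 of Clec14a, Emcn, Ly6c1, Ecscr and Myct1 rose, by 0.59 to 0.997. The Cd93 call between the treated groups was lost without treated knockout replicate 2, treated wild-type replicate 1 or treated wild-type replicate 2 (adjusted p = 0.11, 0.093 and 0.061). Cd93 also missed the threshold without the trend and with only the 2 treated groups in the fit (adjusted p = 0.051 and 0.054). The Emcn call between the treated groups was lost without treated knockout replicate 2 or treated wild-type replicate 1 (adjusted p = 0.081 and 0.077). The Ecscr call between the treated groups was lost without treated knockout replicate 2, treated wild-type replicate 1 or treated wild-type replicate 3 (adjusted p = 0.13, 0.091 and 0.065). Ecscr also missed the threshold with only the 2 treated groups in the fit (adjusted p = 0.057). With a pseudocount of 10 the Ecscr difference between the knockout groups was 0.65. Clec14a passed between the treated groups without treated wild-type replicate 2 (0.30, adjusted p = 0.044), by edgeR (adjusted p = 0.033) and when corrected for length and GC (0.33, adjusted p = 0.018), as did Myct1 with the last correction (0.30, adjusted p = 0.036). The corrected difference of Ecscr between the treated groups was 0.36, adjusted p = 0.11.

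Plvap, which forms the diaphragms of fenestrae and caveolae and marks endocardial and venous endothelium, went the other way, with 7.56, 12.2 and 7.38 in treated knockout hearts, 4.68, 4.27 and 9.13 in treated wild-type hearts and 13.4, 12.1 and 17.1 in untreated knockout hearts. All 3 untreated knockout libraries lay above all 3 treated wild-type libraries, and 1 treated knockout library, replicate 2, reached into the untreated range. The log2 difference was -1.16 ± 0.24 (adjusted p = 0.0026) in treated wild-type over untreated knockout hearts, -0.62 ± 0.24 (adjusted p = 0.046) between the knockout groups and 0.55 ± 0.24 (adjusted p = 0.10) between the treated groups. Without treated wild-type replicate 3 the last of these passed, at 0.84, adjusted p = 0.0086. With a pseudocount of 10 the first was -0.60 and the second -0.35. The Plvap call between the knockout groups was lost without treated knockout replicate 1, treated knockout replicate 3, untreated knockout replicate 1, untreated knockout replicate 2 or untreated knockout replicate 3 (adjusted p = 0.052 to 0.16). By edgeR, by TMM scaling and by scaling without mitochondrial genes the difference between the knockout groups did not pass either (adjusted p = 0.059, 0.057 and 0.10). Plvap was the least deeply read of the 36, with 37 reads in its shallowest library, and overlaps Gtpbp3 on the opposite strand. The endocardial markers Npr3, the natriuretic peptide clearance receptor, and Cytl1, a small secreted protein, were also lower in treated than in untreated knockout hearts, at -0.82 ± 0.12 (adjusted p = 0.00013) and -0.82 ± 0.17 (adjusted p = 0.0012), and atrial markers moved with them. Cytl1 reached the minimum for testing only in untreated knockout libraries, so it had to differ in order to be tested. The third tested endocardial marker, Nfatc1, a transcription factor, was higher (0.38 ± 0.12, adjusted p = 0.013). Between the treated groups Cytl1 was higher in treated knockout hearts (0.64 ± 0.17, adjusted p = 0.014), and without treated knockout replicate 2 none of the 3 markers passed there.

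Nos3, endothelial nitric oxide synthase, had 50.9, 66.7 and 52.2 in treated knockout hearts, 36.8, 38.6 and 40.1 in treated wild-type hearts and 33.1, 37.9 and 37.6 in untreated knockout hearts. Rasip1, a Ras-interacting protein required for vessel lumens, had 48.7, 64.6 and 48.02 in treated knockout hearts, 31.9, 32.9 and 31.4 in treated wild-type hearts and 27.7, 31.6 and 27.4 in untreated knockout hearts. In both genes treated wild-type and untreated knockout hearts overlapped, and every treated knockout library stood above them. Nos3 differed by 0.53 ± 0.10 (adjusted p = 0.0027) between the treated groups and 0.62 ± 0.10 (adjusted p = 0.00021) between the knockout groups. Rasip1 had the smallest p of the 36 between the treated groups (0.72 ± 0.11, adjusted p = 0.00087; 0.86 ± 0.11 between the knockout groups). Its difference between the treated groups was 0.47 when corrected for length and GC (adjusted p = 0.0056) and 0.58 without treated knockout replicate 2.

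**Figure D3:**
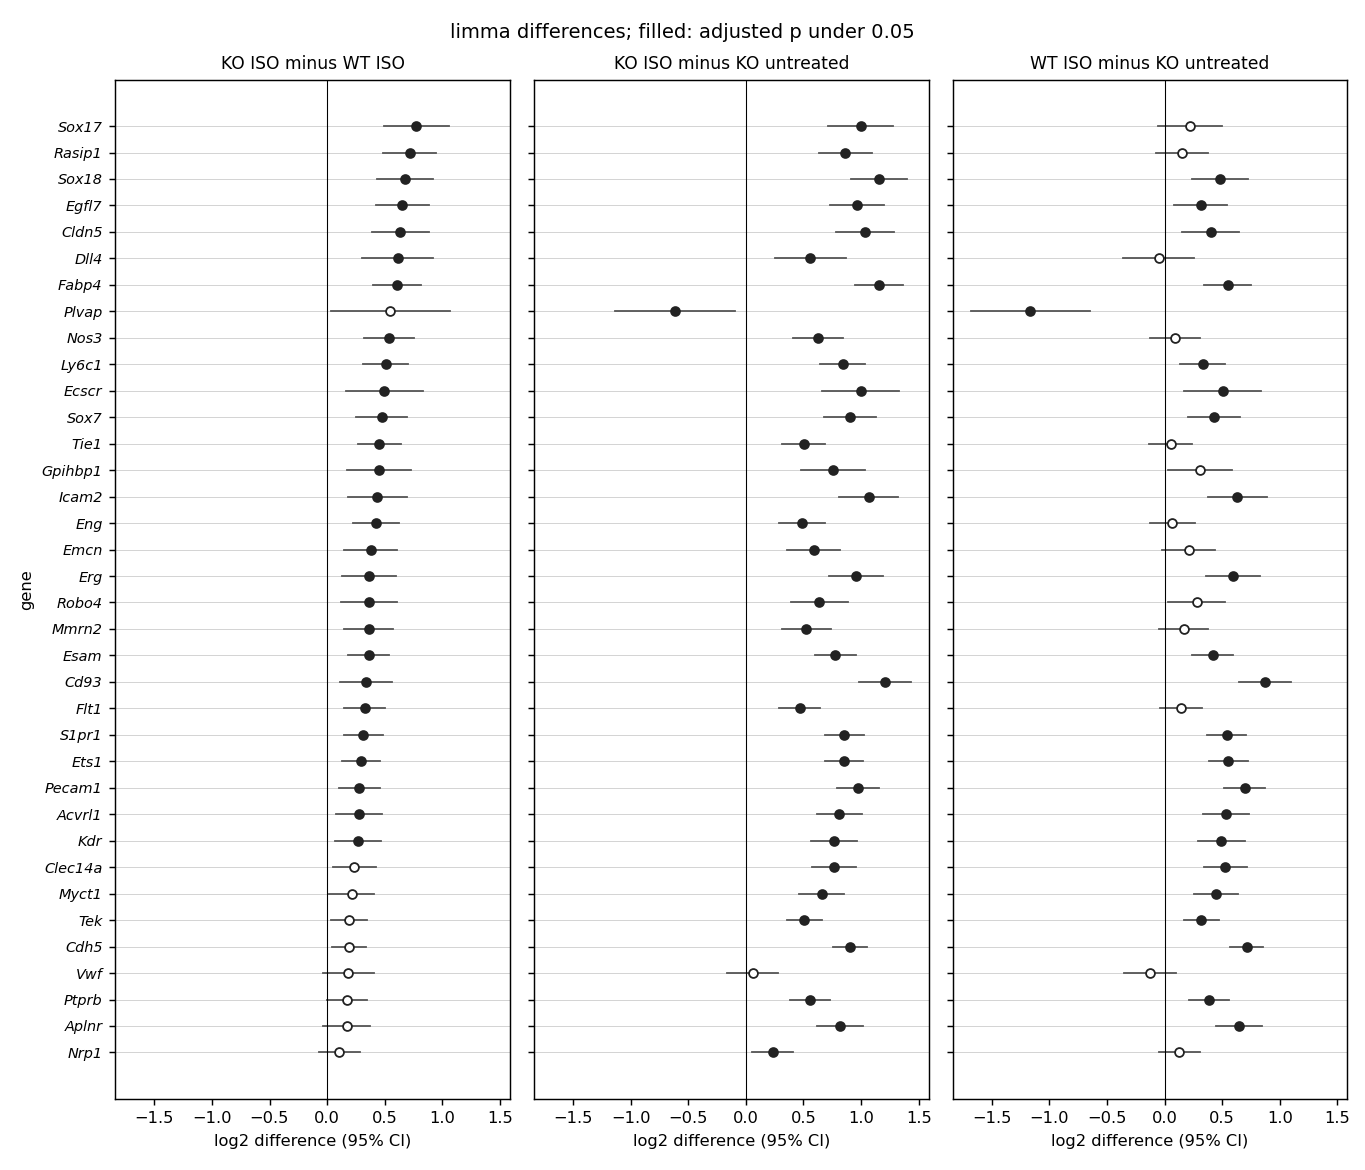
Log2 differences of the 36 genes from the limma fit with 95% intervals, ordered by the first contrast; filled points passed an adjusted p of 0.05. All 36 points lie above 0 in the first panel, where 27 are filled, and Plvap lies below 0 in the other panels.

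The stretches before the annotated starts of 4 of the genes are shown because they belong to the genes with large differences between the treated groups (Rasip1, Cldn5, Dll4) and to the gene with the smallest (Nrp1). They are the 250 bases upstream of the start in RefSeq (GRCm38.p6), 5′ to 3′ on the strand of the gene, with the ETS core GGAA or its reverse TTCC in capitals. Rasip1 at chr7:45627287-45627536, Cldn5 at chr16:18776597-18776846, Dll4 at chr2:119325534-119325783 and Nrp1 at chr8:128358823-128359072 all lie on the plus strand. The GENCODE positions differ for Nrp1 and Rasip1. There Nrp1 starts at 128358604, so its stretch lies inside the gene, and Rasip1 starts at 45627488, within its stretch.
Rasip1: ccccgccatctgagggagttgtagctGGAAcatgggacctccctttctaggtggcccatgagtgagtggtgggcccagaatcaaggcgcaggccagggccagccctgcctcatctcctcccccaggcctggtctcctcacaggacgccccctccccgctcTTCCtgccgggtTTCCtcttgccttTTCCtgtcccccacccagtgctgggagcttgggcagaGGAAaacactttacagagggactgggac
Cldn5: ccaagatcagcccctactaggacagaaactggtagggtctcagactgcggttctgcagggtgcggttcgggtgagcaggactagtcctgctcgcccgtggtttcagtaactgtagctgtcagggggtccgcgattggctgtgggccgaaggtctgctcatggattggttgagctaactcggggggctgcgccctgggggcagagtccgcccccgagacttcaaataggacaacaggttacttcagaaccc
Dll4: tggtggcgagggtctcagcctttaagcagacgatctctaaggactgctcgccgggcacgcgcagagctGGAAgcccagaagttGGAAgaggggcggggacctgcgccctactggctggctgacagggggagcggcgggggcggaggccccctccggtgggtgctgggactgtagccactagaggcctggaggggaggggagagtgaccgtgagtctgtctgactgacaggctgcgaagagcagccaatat
Nrp1: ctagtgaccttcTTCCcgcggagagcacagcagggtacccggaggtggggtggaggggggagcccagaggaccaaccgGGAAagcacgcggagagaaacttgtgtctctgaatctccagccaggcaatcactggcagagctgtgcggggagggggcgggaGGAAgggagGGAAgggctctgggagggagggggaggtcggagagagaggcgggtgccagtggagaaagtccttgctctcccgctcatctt
The core occurred 5 times before Rasip1, 0 times before Cldn5, 2 times before Dll4 and 4 times before Nrp1. Of the 36 genes, 16 had an entry in that table, with 21 starts. The core GGAA on either strand was found before 90.5% of these starts, against 93.5% of all 32851 starts, with a median of 4 matches against 3. The longer CGGAAG, which contains the core, was found before 4.76%, against 13.6% of all starts. The SOX core ACAAT was found before 23.8%, against 27.7%, and TATAAA before 19.0%, against 12.4%. These are letter matches, not binding sites.

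The 36 genes lay on 16 chromosomes, with 6 on chromosome 2. Their transcripts had a median length of 3580.5 bases and a GC content of 51.6%, against 3656 bases and 49.6% for all genes tested. Per kilobase of transcript, the highest mean levels in treated knockout hearts were those of Fabp4 (159), Ly6c1 (151) and Egfl7 (90.3), and the lowest were those of Sox17 (4.15) and Plvap (4.55). Transcript length moved with the contrast of the treated groups over all genes. In the shortest of 4 length classes (151 to 2398 bases) 19.5% of genes were higher and 4.10% lower in treated knockout hearts, and in the longest (5153 to 106824 bases) 6.69% were higher and 26.7% lower. In the middle classes (2399 to 3656 and 3657 to 5152 bases) 10.8% and 10.6% were higher, and 12.9% and 19.8% lower. Endothelial genes were higher in 8 of 9, 9 of 11, 7 of 11 and 3 of 5 cases from the shortest to the longest class. In the fit corrected for length and GC content, 26 of the 36 were higher and 0 lower, with a median of 0.34, against 8.85% higher and 11.4% lower of all genes.

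Other endothelial genes, taken from lists that do not include the 36, gave values in the same contrasts. Some lists share genes, such as Hey1 (Notch and arterial) and Vcam1 (activated endothelium and venous), so their counts are not separate observations. Their counts stand against the same shares of all genes as above, 12.0% higher and 15.9% lower between the treated groups and 23.9% higher and 27.4% lower between the knockout groups. Counts without treated knockout replicate 2, for these and the further lists below, stand against lower shares. Between the treated groups those were 6.34% higher and 9.36% lower. Of 14 tested genes of a list of further endothelial-enriched transcripts, 7 were higher and 0 lower in treated knockout than treated wild-type hearts (median 0.25), and 13 were higher and 0 lower than in untreated knockout hearts (median 0.56). They included Ushbp1, expressed in vessels (0.55 ± 0.09 between the treated groups), and Cd34, a sialomucin shared with progenitor and stromal cells (1.09 ± 0.08 between the knockout groups). Of 8 tested endothelial transcription factors other than those above, 7 were higher and 0 lower between the treated groups (median 0.44) and 7 higher and 0 lower between the knockout groups. Tcf15, which with Meox2 drives fatty acid uptake genes in heart capillaries, differed by 0.94 ± 0.18 (adjusted p = 0.0030) and Meox2 by 0.46 ± 0.13 (adjusted p = 0.022) between the treated groups. Tcf15 reached 10 only in treated knockout libraries, so, like Sox17, it had to differ in order to be tested. Without treated knockout replicate 2 the first list had 6 genes higher and the second 2 between the treated groups.

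Flow-responsive genes were higher between the treated groups in 5 of 6 cases (4 without treated knockout replicate 2), among them Klf2, a transcription factor induced by laminar flow, at 41.2 ± 3.31 in treated knockout, 26.5 ± 2.91 in treated wild-type and 19.1 ± 2.81 in untreated knockout hearts (SD, n = 3 each). Thbd, thrombomodulin, and Pdgfb, the signal that recruits pericytes, differed by 0.29 ± 0.07 and 0.53 ± 0.13. Mapk7, also among the 5, reached 10 only in treated knockout libraries, so it had to differ in order to be tested. Of 9 tested VEGF ligands and partners, 3 were higher and 1 lower between the treated groups. Vegfa, the main ligand of KDR, was at 289 ± 47.2, 221 ± 24.6 and 227 ± 6.39 in the same order of groups (0.38 ± 0.11, adjusted p = 0.020 between the treated groups). Of 12 Notch genes 4 were higher and 0 lower, led by Notch4, the endothelial Notch receptor (0.48 ± 0.11), and between the knockout groups 8 were higher, led by the target gene Hey1 (1.22 ± 0.12). The BMP9/10 list split, with 4 of 12 genes higher and 2 lower between the treated groups: the target genes Id1 and Id3 differed by 0.63 ± 0.13 and 0.46 ± 0.09, and Bmpr2, the type II receptor, was lower, at -0.91 ± 0.11 (adjusted p = 0.00021). Angpt1, the TIE2 ligand made by stromal and muscle cells, was at 20.1 ± 3.69 in treated knockout, 25.96 ± 2.74 in treated wild-type and 67.6 ± 6.22 in untreated knockout hearts, lower at -1.71 ± 0.12 (adjusted p = 8.0e-07) between the knockout groups. Of 3 tested angiopoietin and TIE partners 0 were higher and 2 lower between the treated groups (1 lower without treated knockout replicate 2). Without treated knockout replicate 2, the VEGF and Notch lists each had 2 genes higher between the treated groups.

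Genes of capillary transport were higher between the treated groups for 5 of 8 and lower for 0 (2 higher without treated knockout replicate 2), among them Fabp5, a fatty acid binding protein (0.37 ± 0.10), and Cd300lg, a capillary mucin-like receptor (0.37 ± 0.09). Between the knockout groups 3 of 8 were higher and 2 lower, near the 23.9% and 27.4% of all genes, the lower ones being Cd36 (-0.27 ± 0.09), a fatty acid translocase also made by cardiomyocytes, and Aqp1 (-0.29 ± 0.10), a water channel. Of the nitric oxide list 2 of 8 were higher between the treated groups, Cav1, caveolin-1 (0.23 ± 0.07), and Ddah2 (0.38 ± 0.10), and 5 of 8 between the knockout groups. Of 5 tested S1P and apelin genes 1 was higher between the treated groups, the S1P transporter Spns2 (0.36 ± 0.10), and 3 between the knockout groups, with Apln, apelin, at 1.06 ± 0.12. Arterial genes were higher for 2 of 5 between the treated groups, and Gja5, connexin 40, which atrial myocytes also make, was lower, at -1.07 ± 0.20 between the knockout groups. Gja5 reached the minimum for testing only in untreated knockout libraries, so it had to differ in order to be tested. Of 3 tested venous genes Ephb4 was higher (0.34 ± 0.08). Of 3 tested genes of activated endothelium Icam1 was higher (0.57 ± 0.18), at 20.2, 35.3 and 19.2 in treated knockout and 14.8, 15.9 and 16.7 in treated wild-type hearts. Leaving out treated knockout replicate 2, the counts higher between the treated groups became 0 for activated endothelium, 0 for S1P and apelin, 1 for nitric oxide and 1 for arterial genes. Lymphatic markers gave 0 of 4 higher and 1 lower between the treated groups, the lower one being Prox1 (-0.60 ± 0.11), which cardiomyocytes also express.

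Markers of other cell types were read beside these values. Of all genes, 12.0% were higher and 15.9% lower between the treated groups, and 23.9% higher and 27.4% lower between the knockout groups. The lists are short, and some counts lie near these shares, such as those of pericyte markers between the treated groups. Between the treated groups, 1 of 6 pericyte markers were higher and 1 lower (median -0.00207 on the log2 scale), 3 of 7 fibroblast markers higher and 0 lower (median 0.04), 1 of 4 smooth muscle markers higher and 1 lower, and 2 of 8 cardiomyocyte markers higher and 2 lower (median -0.08). Between the knockout groups, 5 of 7 fibroblast markers were higher and 0 lower (median 0.72, against 0.79 for the endothelial genes), as were 3 of 4 smooth muscle markers (median 0.33). In the same contrast 5 of 6 pericyte markers were higher and 1 lower (median 0.39), 2 of 4 macrophage markers were higher and 0 lower, and 0 of 8 cardiomyocyte markers were higher and 3 lower. The part of these cell types in the endothelial values was not tested. Fibroblast markers summed to 1958 to 1995 in treated knockout, 1675 to 1939 in treated wild-type and 1691 to 1766 in untreated knockout hearts, and smooth muscle markers to 325 to 365, 326 to 403 and 229 to 269. The 36 endothelial genes summed to 3967, 4838 and 4151 in treated knockout hearts, 3286, 3436 and 3265 in treated wild-type hearts and 2378, 2492 and 2631 in untreated knockout hearts, with no overlap among the groups. Dividing-cell markers (6 of 6 listed) summed to 87.3 to 169 in treated knockout, 93.2 to 130.4 in treated wild-type and 11.2 to 14.9 in untreated knockout hearts. Which cells these came from was not tested. Pericyte markers summed to 1062 to 1315, 1157 to 1358 and 871 to 907, so both treated groups lay above the untreated one and overlapped each other. B cell (3 of 4 listed) and neutrophil markers (3 of 4) summed to at most 13.1 in a library, and Schwann cell markers (3 of 4) to at most 11.7.

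**Figure D4:**
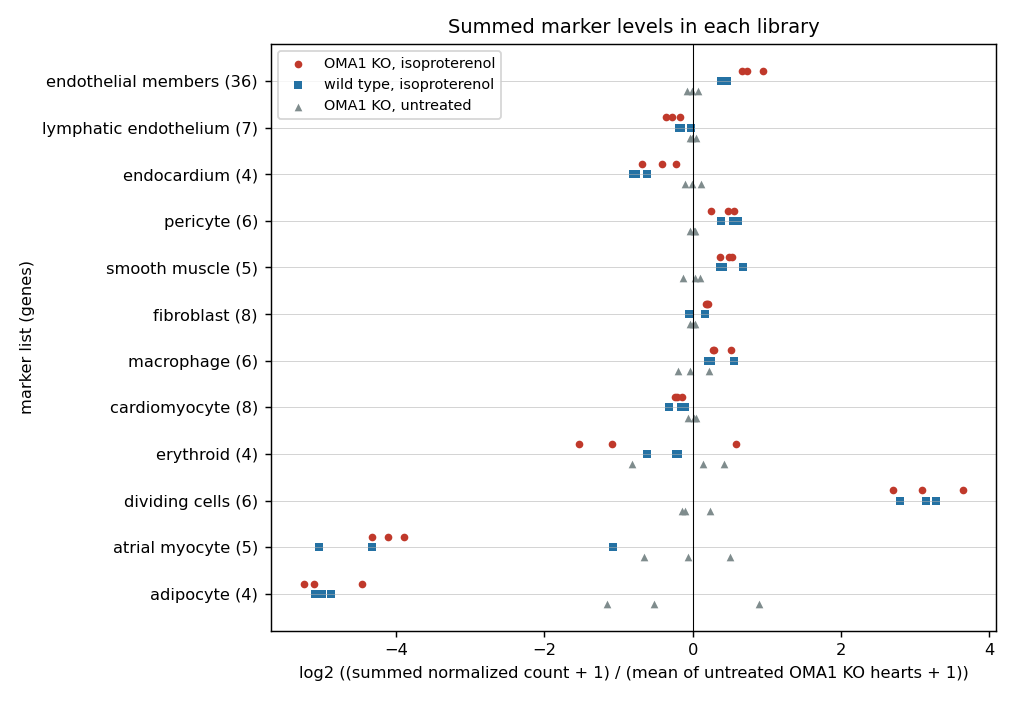
Each row is a marker list with its number of genes, and each point the summed normalized count of a library, as log2((sum + 1)/(mean sum of untreated knockout hearts + 1)). The endothelial genes separate the 3 groups, atrial and adipocyte markers are high in untreated knockout hearts, and dividing-cell markers are high in both treated groups.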

How the data were processed

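RNA was extracted with TRIzol and spin columns from frozen hearts, and libraries were made with a TruSeq kit, per the labels' protocols. The submitters' processing notes name cutadapt, RSEM 1.17, limma and GRCm38; no aligner, strand setting or gene filter is named there. The authors deposited normalized expected counts, taken as a signal scaled to library size: within 0.02 reads, 100% of the values were whole multiples of 1 step per library, so whole reads were recovered. The 8543 genes that reached 10 in 3 or more libraries were tested as log2(value + 1). A limma 3.58.1 model (R 4.3.3) fitted group means with a mean-variance trend, all 9 libraries sharing the spread. Tests were two-sided, with Benjamini-Hochberg adjustment over all genes tested. Positions, transcript lengths and GC content (longest transcript) came from GENCODE M21 on GRCm38, which held 13392 of the listed IDs. The endothelial genes and the other lists were chosen with earlier results of these data known, and the lists are described by counts without a set test. By the rule for names, all 36 genes are accounted for, with others from each list by smallest p. Alternatives covered the pseudocount (10 and 0.5), the filter, 4 scalings, the trend, the groups in the fit, a replicate block, length and GC correction (splines of 5 degrees of freedom), edgeR 4.0.16 and DESeq2 1.42.0 on recovered reads, a threshold of 0.01 and each library left out. The fit was also run on simulated counts with known changes, and the outcome is not given here. The simulation held no outlying library, length trend or difference in tissue content, so it cannot speak to these. The labels give no animal numbers, so p-values cover only the spread among these libraries, which may be technical. Where a group had 0 reads, folds were set against 3 reads in its libraries together, which covers counting error only.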

Additional observations from a re-analysis of the deposited data

How the results depend on the processing

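The count of the 36 genes higher in treated knockout than treated wild-type hearts was 27, and ranged from 16 to 27 with a library left out; at a threshold of 0.01 it was 13. Other alternatives kept it within 1.5 times. In that contrast 0 genes were lower under each alternative run. Between the knockout groups, 34 were higher, and 33 to 34 with a library left out. The 1 lower gene, Plvap, became 0 with TMM scaling, scaling without mitochondrial genome, limma without the trend, edgeR, a threshold of 0.01, and 0 to 1 with a library left out. In treated wild-type over untreated knockout hearts 22 were higher (18 to 23 with a library left out). Under all 24 alternatives at a threshold of 0.05, calls were kept for 15 of 27, 33 of 35 and 19 of 23 genes in the 3 contrasts. Signs turned for genes near 0 only: Vwf between the knockout groups without treated knockout replicate 2 (-0.047 to 0.13 over all libraries left out), and Dll4 in treated wild-type over untreated knockout hearts with scaling without mitochondrial genome (0.0049), length and GC correction (0.021), the same with a replicate block (0.021) and without untreated knockout replicate 1 (-0.10 to 0.0021 over all libraries left out). Same-numbered replicates were not paired by the labels and their deviations correlated at -0.14 to 0.18, so the numbers are not taken as pairs; with the replicate block 27, 34 and 24 genes were higher. Scaling without the mitochondrial genome put the median log2 difference of all genes between the knockout groups at 0.08, against -0.02 as deposited. Between the treated groups it was 0.03 against -0.01, and in treated wild-type over untreated knockout hearts 0.06 against 0.01. The counts under it were 31, 34 and 24 higher in the 3 contrasts, within 1.5 times, but the upward shift applies to all genes. Shares of all genes under the alternatives are not given in this section, so its counts lack that background. Depth limits Plvap most, with 37 reads in its shallowest library.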

Other observations

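Mmrn1 (multimerin-1, a protein of platelets and endothelial cells; ENSMUSG00000054641) was examined after its values were seen. The C57BL/6JOlaHsd substrain, which the labels give for every mouse, is known to lack it. Mmrn1 had 16, 19 and 16 reads in treated knockout hearts, 0, 0 and 0 in treated wild-type hearts and 12, 5 and 8 in untreated knockout hearts. Against a floor of 3 reads over the treated wild-type group, it was at least 5.48-fold higher in treated knockout and at least 3.52-fold higher in untreated knockout hearts. What a difference in substrain contributes to the endothelial values was not tested.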
